A study of Mus musculus with 8 samples.

Results

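The cortical receptors for acetylcholine and the enzyme that degrades it were examined here as 7 genes of 13996 in the table of expression values. The members were taken by gene name: the muscarinic receptor genes Chrm1, Chrm2 and Chrm3, the nicotinic receptor subunit genes Chrna4, Chrna7 and Chrnb2, and Ache, which encodes acetylcholinesterase. All 7 were found as a single row each, and 7 of 7 passed the filter on low values.

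Acetylcholine reaches the cortex mainly in axons that come from the basal forebrain, and it is known for its role in attention, arousal and memory. Muscarinic receptors are coupled to G proteins: M1 (Chrm1) and M3 (Chrm3) act through Gq and phospholipase C, and M2 (Chrm2) acts through Gi, often as an autoreceptor on cholinergic terminals. Nicotinic receptors are pentameric ion channels. The common forms in the brain are the high-affinity receptor built from alpha4 (Chrna4) and beta2 (Chrnb2) and the receptor built from alpha7 (Chrna7). Acetylcholinesterase ends the signal by splitting acetylcholine in the synapse.

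Brain cortexes came from male C57BL/6 mice that were 16 weeks old, after 8 weeks on a conventional diet (normal, 4 mice) or on a diet with 60% fat (high fat diet, HFD, 4 mice). The authors sequenced rRNA-depleted RNA, 1 library per mouse, and gave expression as FPKM, a count of fragments scaled by transcript length and by library size, rounded to 0.1. FPKM is corrected for transcript length, so levels can be compared between genes, but the sequencing depth behind a value is unknown. The summed FPKM per mouse lay between 562431 and 639142.

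The tissue label was checked against marker genes, and normal libraries stood apart, all of them for striatum and mostly mice 2 and 3 for cerebellum and thalamus. Of 9 striatum markers in the table, 9 were lower in HFD mice. Their summed FPKM was 440.1, 361.1, 343.8 and 238.8 in normal mice 1 to 4, against 79.4 to 88.9 in HFD mice. The 9 cerebellum markers summed to 27, 276, 373.6 and 87.1 FPKM in normal mice 1 to 4 and to 23.3 to 26.4 in HFD mice. Cbln3, Fat2 and En2 lay between 0.1 and 0.6 in HFD mice. Cbln1, Zic2 and Grm4 lay between 2.5 and 9.7 there and overlapped with the normal mice. En2 overlapped as well, at 0.2 in normal mouse 1. Of 8 cerebellum markers tested, 5 were lower. Thalamus markers summed to 54.4, 123.4, 102.2 and 38.5 in normal mice 1 to 4 and to 35.3 to 38.5 in the other diet, with 3 of 9 lower. Of all genes tested, 17.7% were higher and 15.3% lower at an adjusted p below 0.05 from limma, the threshold of these counts. Markers of cortical projection neurons were present in every library, with 7 of 10 higher on HFD (summed FPKM 309.7 to 460.4 against 505.8 to 596.2). Normal mice 2 and 3 had the highest cerebellum and thalamus sums and the lowest cortical sums, so results are also given without both of them. Those results keep normal mouse 1, whose striatum sum was the highest of the 8 mice. In these bulk samples a larger share of one cell type and more RNA per cell cannot be told apart, nor can diet and the makeup of the dissected tissue.

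**Figure D1:**
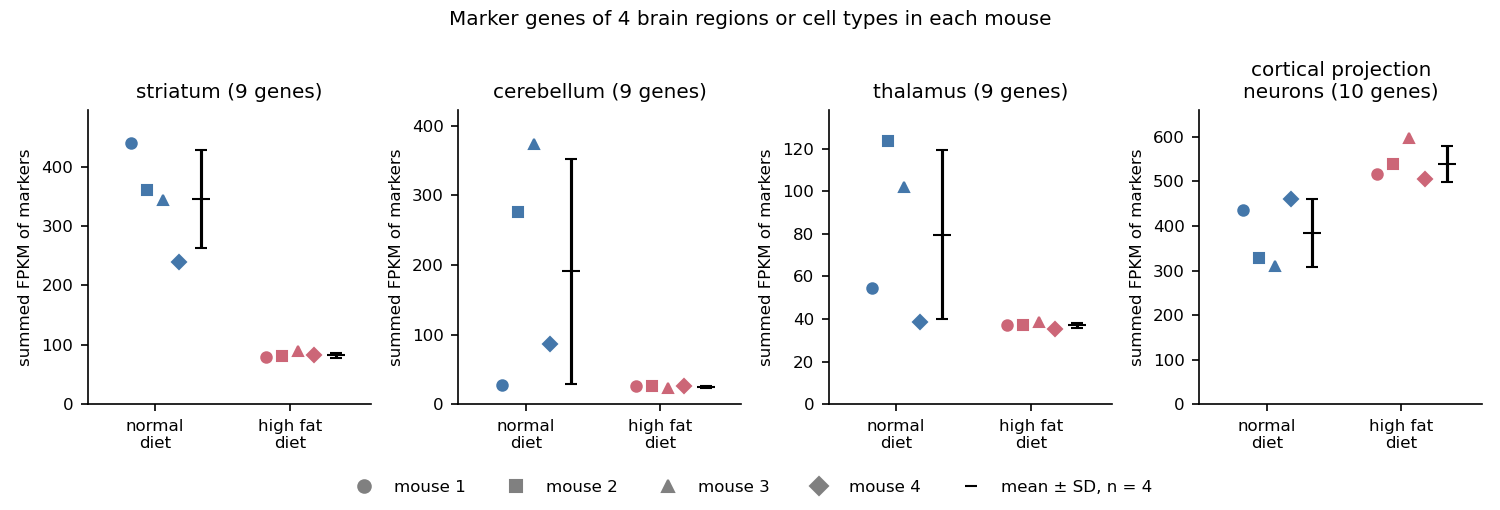
Summed FPKM of marker genes of striatum, cerebellum, thalamus and cortical projection neurons (y axis, linear) in each mouse of both diets (x axis), with mean ± SD. Normal mice 2 and 3 reach cerebellum sums of 276 and 373.6 FPKM, while no HFD mouse exceeds 26.4.

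Across the cholinergic genes, Chrm1 and Chrna4 were higher in HFD mice, and the other 5 genes had overlapping values between the diets. On log2(FPKM + 0.1), limma with Benjamini-Hochberg adjustment over 13982 genes placed 2 of the 7 below an adjusted p of 0.05, both higher and 0 lower. Over all genes tested 33.1% passed, 17.7% as higher and 15.3% as lower, so a count of 2 of 7 lies near the background. Both also changed by more than 50% in that fit, which with the adjusted threshold held for 7.13% of all genes. Values of the diets were fully separated for the same 2 genes, against 31.9% of all genes (17.2% with the high fat diet above). The median log2 fold change of the 7 was 0.09, and that of all genes tested was 0.0031.

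**Figure D2:**
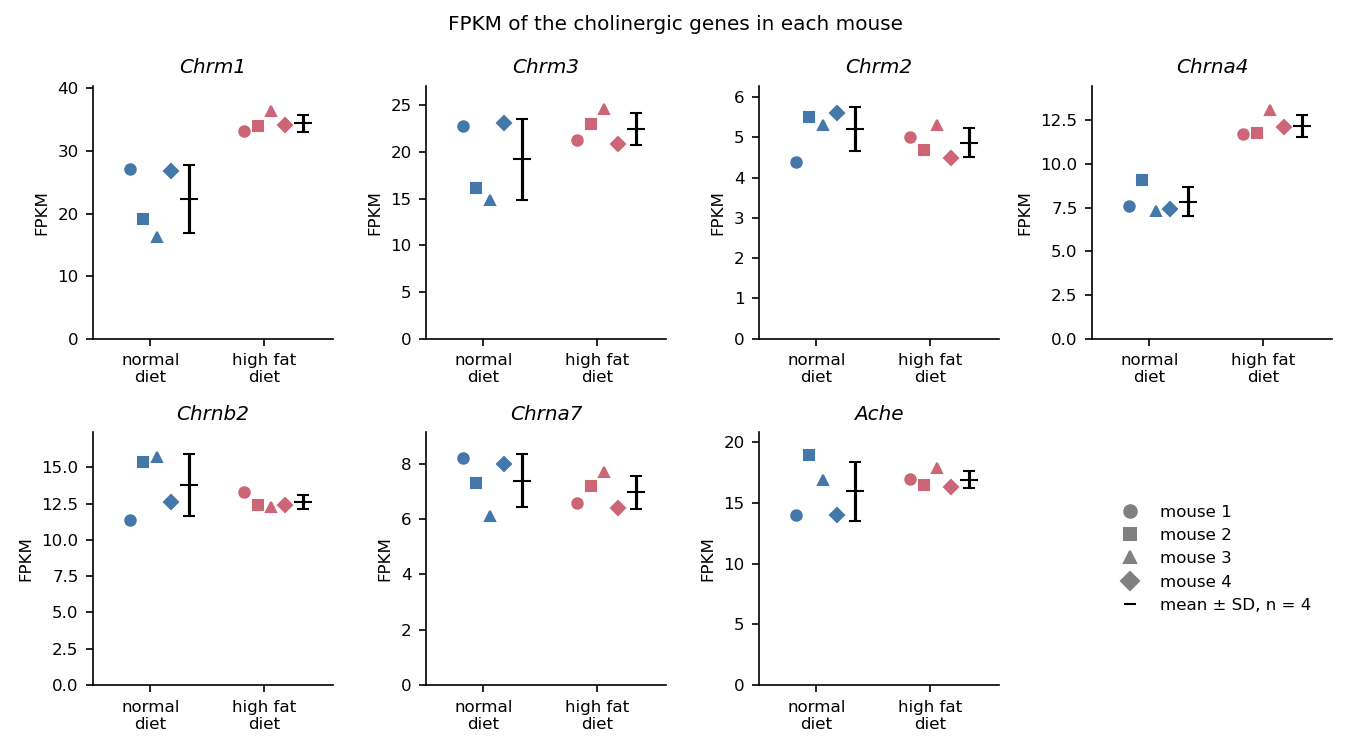
FPKM (y axis, linear from 0) of the 7 cholinergic genes in each of 4 normal and 4 HFD mice (x axis), with mean ± SD beside the points. The diets are separated for Chrm1 and Chrna4, and in the normal group mice 2 and 3 lie below mice 1 and 4 for Chrm1 and Chrm3.

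Chrm1, the gene of the most abundant muscarinic receptor of cortical projection neurons, had the highest level of the 7 in both diets. Its gene (ENSMUSG00000032773.9) spans chromosome 19, 8663789 to 8683587, plus strand (GRCm38, GENCODE M21). Chrm1 was at 27.1, 19.1, 16.3 and 26.8 FPKM in normal mice 1 to 4, and at 33.2, 34, 36.4 and 34.1 in HFD mice 1 to 4. Each HFD mouse lay above each normal mouse, and the normal mice fell into a higher pair, 1 and 4, and a lower pair, 2 and 3. The means were 22.3 ± 5.46 and 34.4 ± 1.38 (SD, n = 4), a log2 fold change of 0.66 (standard error, SE, 0.15, limma adjusted p = 0.00979). The difference was smaller when the mice with high cerebellum and thalamus markers were left out or those markers were in the model. Without normal mice 2 and 3, a choice made after seeing the data, the log2 fold change was 0.35 (SE 0.052, limma adjusted p = 0.00619), past the threshold but under a 50% change. With the mean level of cerebellum markers in the model it was 0.09 (SE 0.13, adjusted p = 0.72), and with thalamus markers 0.27 (adjusted p = 0.236, both from limma), and with striatum markers the call was lost as well (0.49, limma adjusted p = 1).

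Chrm3, the other Gq-coupled receptor, was at 22.8, 16.1, 14.9 and 23.1 FPKM in normal mice 1 to 4 and at 21.3, 23, 24.6 and 20.9 on HFD. The same normal mice, 2 and 3, were low, and normal mice 1 and 4 overlapped with the HFD group. The log2 fold change of 0.25 (95% confidence interval -0.07 to 0.57) did not pass the threshold (limma adjusted p = 0.205), and without normal mice 2 and 3 it was -0.03. Chrm3 (ENSMUSG00000046159.16) spans chromosome 13 from 9875486 to 10360847 on the minus strand.

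Chrm2, which encodes the Gi-coupled M2 receptor, had the lowest level of the 7 in both diets. It was at 4.4, 5.5, 5.3 and 5.6 FPKM in normal mice and at 5, 4.7, 5.3 and 4.5 in HFD mice. All values lay within a narrow band, and the interval of the log2 fold change, -0.30 to 0.12 around -0.09 (limma adjusted p = 0.492), left room for a modest change either way. Chrm2 (ENSMUSG00000045613.9) spans chromosome 6, 36388084 to 36528414, plus strand.

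The balance between transcripts of the muscarinic receptors was also separated by diet, and receptor protein was not analysed here. A ratio within a mouse does not depend on the scaling between libraries. The ratio of Chrm3 to Chrm1 was 0.841, 0.843, 0.914 and 0.862 in normal mice 1 to 4 and 0.642, 0.676, 0.676 and 0.613 in HFD mice 1 to 4. Although Chrm1 and Chrm3 each differed between the pairs of normal mice, their ratio stayed between 0.841 and 0.914 in that diet. The diets were separated, with a log2 difference of -0.41 (exact two-sided permutation test over 70 assignments of mice, p = 0.0286, the smallest possible, and adjusted p = 0.0286 over 3 ratios). The ratio of Chrm2 to Chrm1 was 0.162, 0.288, 0.325 and 0.209 in normal mice and 0.151, 0.138, 0.146 and 0.132 in HFD mice. These groups did not overlap either (log2 difference -0.74, exact p = 0.0286, adjusted p = 0.0286), but normal mouse 1, with the least cerebellum marker RNA of its diet, lay close to the HFD mice. Without any one of the HFD mice the adjusted p of this ratio was 0.0571 in the exact test. None of the 3 ratios reported here overlapped between the diets. That normal mice 1 and 4 alone lay apart from the HFD mice follows from this and is no further check. The ratios were not fitted with region markers in the model. With cerebellum markers the limma log2 fold changes of Chrm1 and Chrm2 were nearly the same, at 0.09 and 0.10. Chrm3 was at -0.26, Chrna4 at 0.70 and Chrnb2 at 0.25 in that fit. With thalamus markers Chrm1, Chrm2 and Chrm3 were at 0.27, -0.05 and -0.12, and Chrna4 and Chrnb2 at 0.75 and 0.11. A ratio shows unequal change and does not say which of the genes moved. Each ratio holds Chrm1 or Chrna4, which were separated by diet on their own, and both muscarinic ratios share Chrm1. The ratios are therefore not independent of those calls. Single genes were separated for 31.9% of all genes tested, and the share over pairs of genes was not computed.

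Among the nicotinic subunits, Chrna4 was higher, and Chrnb2 and Chrna7 overlapped between the diets. Chrna4 was at 7.6, 9.1, 7.3 and 7.4 FPKM in normal mice 1 to 4 and at 11.7, 11.8, 13.1 and 12.1 in HFD mice. The groups lay far apart, and normal mice 2 and 3 did not stand together for this gene: mouse 2 was the highest and mouse 3 the lowest of the diet. The means were 7.85 ± 0.843 and 12.2 ± 0.64 (SD, n = 4), a log2 fold change of 0.63 (SE 0.078, 95% confidence interval 0.46 to 0.81, limma adjusted p = 0.000915). It was 0.69 without normal mice 2 and 3, 0.70 with cerebellum markers in the model (adjusted p = 0.0317) and 0.75 with thalamus markers (adjusted p = 0.00923, all from limma). Only with striatum markers in the model was the call lost (log2 fold change 0.89, SE 0.41, limma adjusted p = 1). That marker level nearly repeated the diet, and 0 of 13982 genes passed in that fit, with 293 at an unadjusted p below 0.05. Chrna4 (ENSMUSG00000027577.14) lies on the minus strand of chromosome 2 from 181018380 to 181043546.

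Chrnb2, the partner of Chrna4 in the high-affinity receptor, was at 11.4, 15.4, 15.7 and 12.6 FPKM in normal mice 1 to 4 and at 13.3, 12.4, 12.3 and 12.4 on HFD. Here normal mice 2 and 3 were the high ones, the reverse of their place for Chrm1. The log2 fold change was -0.12 (95% confidence interval -0.34 to 0.11, limma adjusted p = 0.394), and it changed sign to 0.07 without those mice. Chrnb2 (ENSMUSG00000027950.7, chromosome 3, 89746195 to 89764632, minus strand) shares 1365 of its 8380 exonic bases with Adar on the opposite strand. The sources used here do not give whether strand was used in counting, so reads of that stretch cannot be assigned with certainty. Adar lay between 36.3 and 39.6 FPKM in the 8 mice (limma adjusted p = 0.433).

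In each HFD mouse Chrna4 took a larger share beside Chrnb2. The ratio of Chrna4 to Chrnb2 was 0.667, 0.591, 0.465 and 0.587 in normal mice 1 to 4 and 0.88, 0.952, 1.07 and 0.976 in HFD mice 1 to 4. The lowest high fat diet value lay well above the highest normal one, a log2 difference of 0.75 (exact two-sided permutation p = 0.0286, adjusted p = 0.0286 over 3 ratios). On the normal diet Chrnb2 exceeded Chrna4 in 4 of 4 mice without overlap, and on HFD the levels of both genes overlapped.

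**Figure D3:**
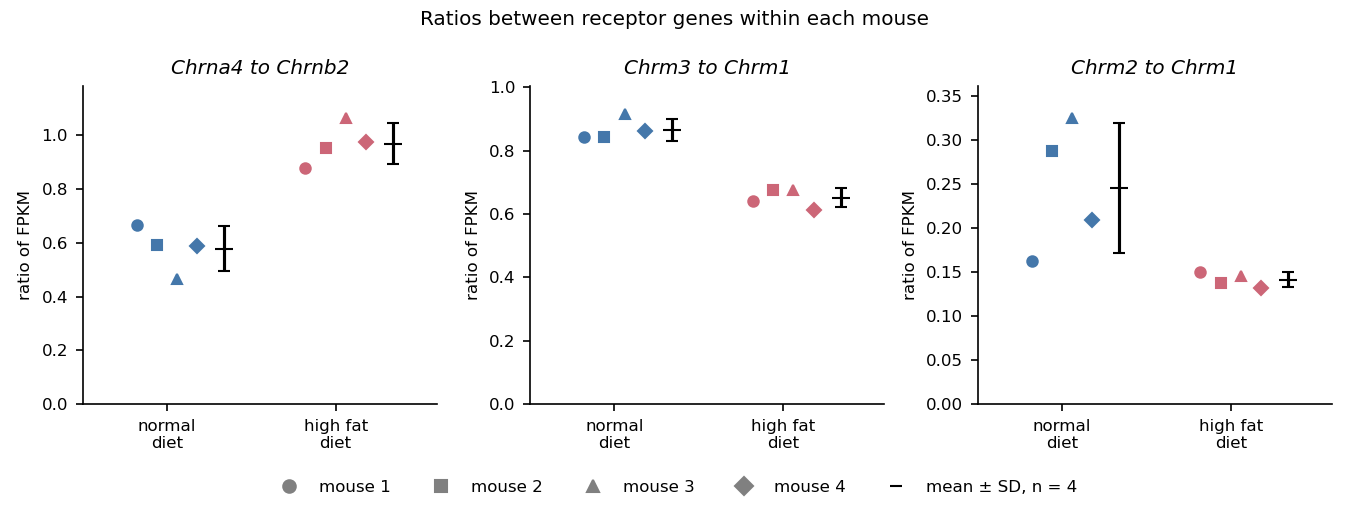
Ratios of FPKM within each mouse (y axis, linear from 0) for Chrna4 to Chrnb2, Chrm3 to Chrm1 and Chrm2 to Chrm1 in both diets (x axis), with mean ± SD. No ratio overlaps between the diets, and Chrm3 to Chrm1 varies little among normal mice (0.841 to 0.914). Each ratio holds Chrm1 or Chrna4, which were separated by diet on their own.

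The bases before the RefSeq starts of these subunit genes are shown because both genes serve one receptor and their ratio differed between the diets. Sequences come from RefSeq on GRCm38.p6, where 6 of the 7 genes were matched and Chrm1 was not. Each line holds the 250 bases upstream of the start, written 5' to 3' on the minus strand, with capitals for the GC box GGGCGG, the letters bound by Sp-family factors, searched on both strands. Chrna4 is at chr2:181039178-181039427 and Chrnb2 at chr3:89764633-89764882. The RefSeq start of Chrna4 lies inside the GENCODE span given above, which reaches farther upstream, and that of Chrnb2 is the end of its span.
Chrna4: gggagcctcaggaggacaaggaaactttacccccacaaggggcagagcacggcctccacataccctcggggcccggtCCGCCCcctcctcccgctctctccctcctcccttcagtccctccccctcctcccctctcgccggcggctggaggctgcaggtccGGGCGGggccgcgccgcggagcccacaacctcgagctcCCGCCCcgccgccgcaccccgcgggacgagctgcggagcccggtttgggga
Chrnb2: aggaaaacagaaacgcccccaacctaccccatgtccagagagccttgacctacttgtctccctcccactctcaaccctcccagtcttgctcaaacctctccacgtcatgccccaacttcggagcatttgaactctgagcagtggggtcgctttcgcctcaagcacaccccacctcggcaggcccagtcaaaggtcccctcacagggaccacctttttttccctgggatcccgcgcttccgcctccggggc
The window of Chrna4 is 74.4% G and C and holds 3 GC boxes, at 173, 89 and 51 bases before the start. The window of Chrnb2 is 59.6% G and C and holds 0, and the median over all windows was 52.4%. Of 32851 such windows, 32.7% held a GC box. Among the other members matched, Ache held 4, Chrna7 and Chrm2 held 1 each and Chrm3 held 0. The cyclic AMP element TGACGTCA and the letters TATAAA were found in 0 of the 6 windows, against 1.55% and 12.4% of all windows. These matches describe letters only, and no binding was measured.

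Chrna7, the subunit of the alpha7 receptor, was at 8.2, 7.3, 6.1 and 8 FPKM in normal mice 1 to 4 and at 6.6, 7.2, 7.7 and 6.4 on HFD. Values of the diets were intermixed, with normal mouse 3 the lowest of all 8 mice. The log2 fold change was -0.08 (95% confidence interval -0.31 to 0.15, limma adjusted p = 0.578), and -0.36 with cerebellum markers in the model (adjusted p = 0.159). Chrna7 (ENSMUSG00000030525.8) lies on chromosome 7 from 63098692 to 63212569 on the minus strand.

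Ache was at 14, 19, 16.9 and 14 FPKM in normal mice 1 to 4 and at 17, 16.5, 17.9 and 16.3 in HFD mice. Normal mice 2 and 3 were again the high ones of their diet, and normal mice 1 and 4 lay below every HFD mouse. Over 8 mice the log2 fold change was 0.09 (95% confidence interval -0.12 to 0.31, limma adjusted p = 0.479). Without normal mice 2 and 3 it was 0.27 (adjusted p = 0.0183) and with thalamus markers in the model 0.36 (adjusted p = 0.0301, both from limma), so the call for Ache depended on how these mice were treated. Ache (ENSMUSG00000023328.14) lies on chromosome 5 from 137287519 to 137294466 on the plus strand. Noncoding genes on the opposite strand overlap exons of Chrm1 (Gm22820), Chrm2 (9330158H04Rik), Chrm3 (Gm26861) and Ache (Gm42456), so the same doubt about strand holds for these values.

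**Figure D4:**
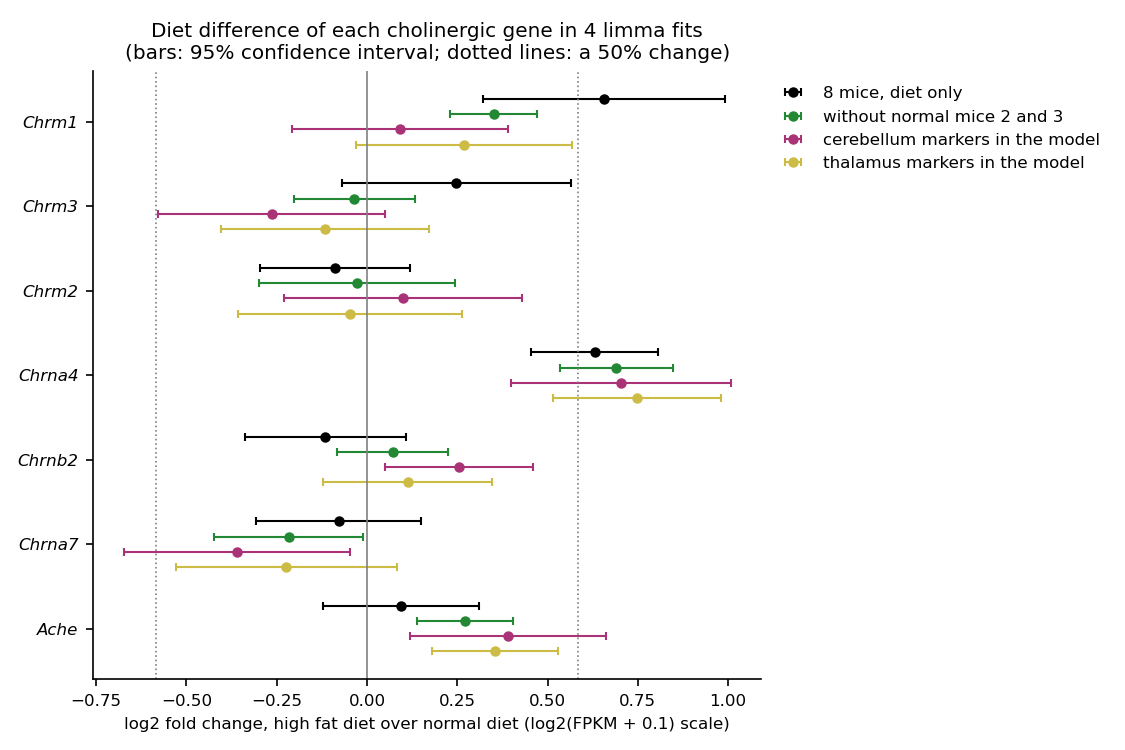
Log2 fold change of high fat diet over normal diet (x axis, log2(FPKM + 0.1) scale) with 95% confidence intervals for each gene (y axis) from 4 limma fits: 8 mice with diet only, without normal mice 2 and 3, and with cerebellum or thalamus markers in the model. In these fits Chrna4 stays between 0.63 and 0.75, while Chrm1 moves from 0.66 to as low as 0.09. The fit with striatum markers is not drawn, and in it Chrna4 was at 0.89 (SE 0.41) and lost its call.

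By FPKM the order in normal mice was Chrm1, Chrm3, Ache, Chrnb2, Chrna4, Chrna7 and Chrm2, with means of 22.3, 19.2, 16, 13.8, 7.85, 7.4 and 5.2. Neighbours overlapped in their ranges except at Chrnb2 over Chrna4 and at Chrna7 over Chrm2. The order was the same on HFD, with means of 34.4, 22.5, 16.9, 12.6, 12.2, 6.98 and 4.88. There, Chrnb2 and Chrna4 were the neighbours whose ranges overlapped, and the other neighbours were separated. Among all genes tested the mean level of Chrm1 lay at the 80.2nd percentile and that of Chrm2 at the 31.3rd.

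The normal mice varied more among themselves than the HFD mice did in 7 of 7 genes. The coefficient of variation of Chrm1 was 24.5% in normal mice and 4% in HFD mice, and the median over the 7 genes was 15.3% and 5.25%. Over all genes tested the medians were 8.45% and 7.08%, and the normal diet had the larger value for 58.6% of genes.

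Genes with the most similar pattern over the 8 mice were sought for Chrm1 and Chrna4 by the root mean square difference of log2(FPKM + 0.1) after each gene was centred on its mean. Closest to Chrm1 were Vip, a neuropeptide of interneurons (difference 0.047), Emx1, a transcription factor of cortical projection neurons (0.061), and Sstr4, a somatostatin receptor (0.062). The median difference from Chrm1 over 9637 genes was 0.412. Vip was 13 to 23.1 FPKM in normal mice and 28.1 to 30 in HFD mice. Closest to Chrna4 were the clock gene Per2 (0.071), the synapsin gene Syn3 (0.084) and the miR-124 host gene Mir124-2hg (0.088), against a median of 0.349. Per2 was 4.9 to 7 FPKM in normal mice and 8.5 to 9.6 in HFD mice.

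Other genes of cholinergic signalling were taken from 5 lists of 48 genes, of which 30 were tested. In total 15 of the 30 passed the adjusted threshold, 7 higher and 8 lower, and the median log2 fold change of the 30 was 0.0051. The share over all genes tested was 33.1%, with 17.7% higher and 15.3% lower. With cerebellum markers in the model 5 passed, 3 of them shared with the 15, where 4.21% of all genes passed. With thalamus markers 4 passed, again 3 of them shared, where 7.63% of all genes passed. The receptor genes Chrm4 and Chrna5 did not pass over 8 mice. Chrm4, a Gi-coupled receptor, was 13.4 to 21.7 FPKM in normal mice and 17.3 to 19 in HFD mice (log2 change 0.13, limma adjusted p = 0.464), but with cerebellum markers in the model it was -0.41 (limma adjusted p = 0.024). Chrna5, an accessory subunit of the alpha4 beta2 receptor, was 0.9 to 1.7 and 1.5 to 1.9 FPKM, where rounding to 0.1 limits the precision.

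Transcripts of proteins that bind nicotinic receptors moved in both directions. Of 7 tested genes, 2 were higher and 3 lower, against 17.7% and 15.3% of all genes. Ly6h, which restrains alpha7 receptors at the cell surface, was 83.4, 80.8, 84.7 and 95.4 FPKM in normal mice and 152.9, 140.5, 125.7 and 144.2 in HFD mice. The groups were far apart, with a log2 fold change of 0.71 (SE 0.071, limma adjusted p = 0.000495), and Ly6h passed also with cerebellum (0.67) or thalamus markers (0.59) in the model. Lypd1, a prototoxin that binds nicotinic receptors, was higher by 0.49 on the log2 scale (28.8 to 33.8 FPKM against 36.9 to 49.6, limma adjusted p = 0.00441). Lynx1, which dampens nicotinic receptors, was lower (111.2 to 128.6 against 90.7 to 110.5 FPKM, log2 change -0.31, limma adjusted p = 0.0113). Ric3, a chaperone of the alpha7 receptor, was also lower (27.7 to 29.7 against 23.5 to 26 FPKM, log2 change -0.21, limma adjusted p = 0.00938). Lypd6b was lower at -0.37 (limma adjusted p = 0.0404), but without normal mice 2 and 3, at the same -0.37, it did not pass (limma adjusted p = 0.125), and it passed in only 1 of 8 fits that left out a mouse, that without HFD mouse 3. Lypd6 and Ly6e did not pass. Lynx1 was at -0.43 with cerebellum and -0.30 with thalamus markers in the model, no longer past the threshold although the change was about as large or larger. Ric3 lost its call in the same fits at -0.16 and -0.19, and without normal mice 2 and 3 at -0.19 (limma adjusted p = 0.0532). Lypd1 was at 0.67 with cerebellum markers, past the threshold, and at 0.52 with thalamus markers (limma adjusted p = 0.0526).

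Among 15 effectors of muscarinic receptors, 4 were higher and 3 lower, against 17.7% and 15.3% of all genes. The G protein-gated potassium channel genes Kcnj6 (16.2 to 20.9 against 24.7 to 28.2 FPKM) and Kcnj9 (42.3 to 46.9 against 56.6 to 63.5) had log2 fold changes of 0.49 and 0.43 (adjusted p = 0.00334 and 0.00132 from limma), whereas Kcnj3, their partner, was at -0.07 and passed only with thalamus markers in the model or without normal mice 2 and 3. Gna11, a G protein alpha subunit of the Gq class, was 22.9 to 29.5 FPKM in normal mice and 32.3 to 34.3 in HFD mice (log2 change 0.33, limma adjusted p = 0.00729). Plcb4, a phospholipase C isoform, had the largest decrease of the list. It was at 24, 39.9, 39.5 and 24.2 FPKM in normal mice 1 to 4, with mice 2 and 3 high, and at 14.2 to 19.2 in HFD mice (log2 change -0.97, limma adjusted p = 0.00457), and -0.34 with cerebellum markers in the model (limma adjusted p = 0.345). Rgs4, which shortens G protein signals, was 144.6 to 250.8 against 110.8 to 140.2 FPKM (log2 change -0.62, limma adjusted p = 0.0113), and it was -1.17 with cerebellum and -0.83 with thalamus markers in the model, past the threshold in both. The calls of Kcnj6, Gna11 and Plcb4 were lost in both of those fits, and that of Kcnj9 with cerebellum markers.

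Of 6 tested genes of choline handling, breakdown and anchoring, 1 was higher and 2 lower, where all genes gave 17.7% and 15.3%. Chkb, a choline kinase, was 9.8 to 10.8 FPKM in normal mice and 11.7 to 13.3 in HFD mice (log2 change 0.24, limma adjusted p = 0.0127). Slc44a1, a choline transporter, was lower at -0.37 (limma adjusted p = 0.0106), although 1 HFD mouse, at 28.9 FPKM, overlapped with normal mouse 4 at 28.7. Prima1, which anchors acetylcholinesterase in the membrane of neurons, was at 2, 1.5, 1.4 and 1.4 FPKM in normal mice and 1.3, 0.2, 0.9 and 0.5 on HFD. Its log2 fold change of -1.23 (SE 0.42, limma adjusted p = 0.0469) passed in only 1 of 8 fits that left out a mouse, that without HFD mouse 1, and without normal mice 2 and 3 it was -1.32 (limma adjusted p = 0.13). With cerebellum or thalamus markers in the model Chkb was at 0.33 and 0.24, as large as before but no longer past the threshold. Slc44a1 fell short in the same fits at -0.23 and -0.16, and without normal mice 2 and 3 at -0.25 (limma adjusted p = 0.0713). Chka, Slc44a2 and Bche did not pass. Chat, Slc18a3 and Slc5a7, which mark cholinergic neurons, were not analysed here.

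**Figure D5:**
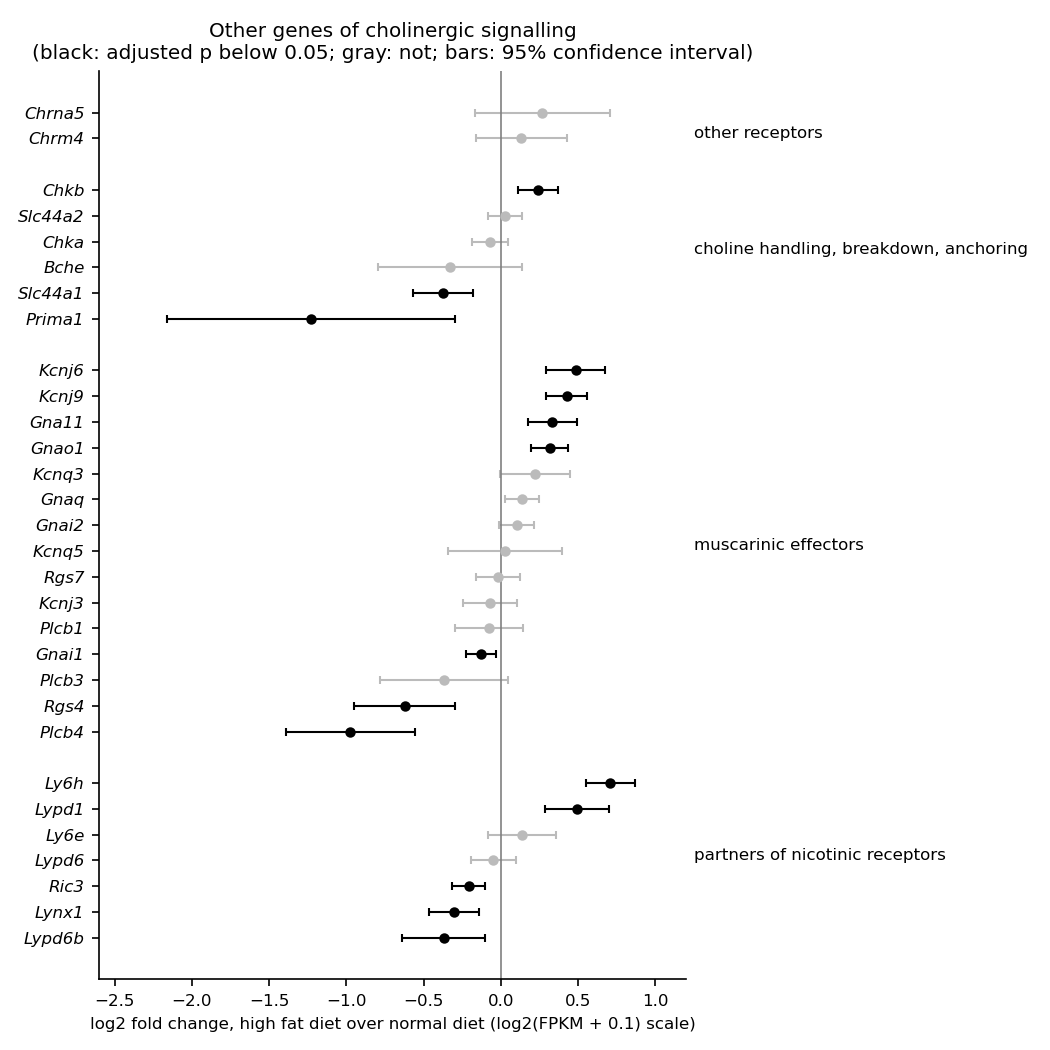
Log2 fold change of high fat diet over normal diet (x axis, log2(FPKM + 0.1) scale) with 95% confidence intervals for 30 other genes of cholinergic signalling, grouped by role (y axis), black where the adjusted p from limma over 8 mice is below 0.05. Of 30 genes, 7 are black on the higher side and 8 on the lower side, with Ly6h the highest and Prima1 the lowest.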

How the data were processed

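The authors isolated total RNA from the cortexes of 8 mice, 4 per diet, removed rRNA, made stranded libraries and sequenced them from both ends. After trimming (Trimmomatic) and alignment to mm10 (STAR) the authors deposited FPKM values from Cuffnorm on GENCODE M17 (GRCm38.p6), rounded to 0.1. The depth is unknown, so no counting interval was computed. Genes with a mean FPKM under 1 or a 0 were left out, as in the methods of the study, which removed 14 of 13996. The diets were compared on log2(FPKM + 0.1) by limma 3.58.1 (R 4.3.3, variance trend on, two-sided, Benjamini-Hochberg adjustment over all 13982 genes tested, threshold 0.05). Fold changes on this scale understate changes of low genes. Receptor ratios were compared by exact permutation, adjusted over 3 ratios. Intervals are at 95%. Python 3.11.15, numpy 2.4.6, pandas 2.3.3, scipy 1.17.1 and matplotlib 3.10.9 were used, and the procedure was tested on simulated data. Genes were named by rule: the 7 members, each tested receptor, choline or breakdown gene, each partner past the threshold, the 5 largest changes among effectors past it, and 3 genes of similar pattern (mean FPKM of at least 5) per member past it. A gene taken off the effector list is not reported here, and the counts are over the genes that remain. The exceptions are Kcnj3, Lypd6 and Ly6e, named after their values were seen. The members and lists were chosen with earlier results of these data known. Of 12 marker lists, 4 are described, and the others are given in the closing section.

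Alternatives were added constants of 1 and 0.01, no filter, a mean FPKM of at least 5, median-ratio and quantile scaling, limma without the trend, a block for the replicate number, marker levels of striatum, cerebellum or thalamus as a covariate, and each mouse left out in turn.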

Additional observations from a re-analysis of the deposited data

Results flagged for a closer look

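Each member, each pathway gene named by rule and each ratio was examined in each diet, which gave 56 groups of 4 mice. Kcnj3, Lypd6, Ly6e and the genes of similar pattern were not examined. Of the 56 groups, 4 held a mouse that stood apart. Its gap to the nearest other mouse exceeded Dixon's 95% critical value as a share of the group's range. Chance gives about 5% of such groups. For the members, normal mouse 2 stood apart for Chrna4 at 9.1 FPKM, against 7.3 to 7.6 in the other normal mice, and it remained below all HFD mice. HFD mouse 1 stood apart for Chrnb2 at 13.3 FPKM, against 12.3 to 12.4, and it lay within the normal range. Among the other genes, HFD mouse 3 was high for Slc44a1 at 28.9 FPKM (24.5 to 25.2 in the others). Normal mouse 1 was high for Prima1 at 2.0 FPKM (1.4 to 1.5 in the others).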

How the results depend on the processing

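On the log2 scale Chrm1 and Chrna4 kept their direction under all 20 alternatives, and Chrna4 passed the threshold in 19 and Chrm1 in 17. With striatum markers as a covariate 0 members passed, with Chrm1 at 0.49, Chrna4 at 0.89 and Chrm3 reversed to -0.0794. With cerebellum markers 1 member passed, with Chrm1 at 0.0915, and Chrm2 (0.10), Chrm3 (-0.26), Chrnb2 (0.25), Chrm4 (-0.41), Chrna5 (-0.16) and Chka (0.0325) reversed. With thalamus markers Chrm1 was at 0.27, Ache passed at 0.36, and Chrm3 (-0.12), Chrnb2 (0.11), Chrm4 (-0.14), Chrna5 (-0.0209) and Chka (0.0044) reversed. The pathway lists then gave 0, 5 and 4 calls for striatum, cerebellum and thalamus, against 15. All genes tested gave 0%, 4.21% and 7.63% in those fits, against 33.1%. Under striatum markers Slc44a1 (0.20), Chka (0.0256), Chkb (-0.10), Bche (0.81), Prima1 (0.44), Lynx1 (0.0492), Gna11 (-0.0452) and Rgs4 (0.0870) reversed, and no gene of the table passed. Without normal mice 2 and 3, Ache passed at 0.27, while Chrm3 (-0.0346), Chrnb2 (0.0709) and Chrm4 (-0.12) reversed.

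With each mouse left out in turn, Chrm1 ranged from 0.52 to 0.76, under a 50% change without normal mouse 3, and Chrna4 from 0.60 to 0.70. Chrm2 to Chrm1 ranged from -0.92 to -0.59, with an adjusted p of 0.0571 by exact permutation without any one HFD mouse. In the fits that left out a mouse, 13 or 12 pathway genes passed, and 23.6% to 33.0% of all genes. No pairing by replicate number was seen: same-numbered mice correlated between -0.109 and -0.0275 in their deviations, across genes. Such correlations cannot exclude that same-numbered mice were handled together. The replicate block left 2 members past the threshold (Chrm1 adjusted p = 0.0257, Chrna4 adjusted p = 0.00965 from limma) and 3390 of all genes against 4626. Differences within replicate numbers left the ratios at 0.75, -0.41 and -0.74 with an exact p = 0.125, the smallest that 4 pairs allow. Rounding to 0.1 limits Chrna5, Bche and Prima1 most.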

Other observations

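Some of the other marker lists moved with the diet beside the cholinergic genes. Over all genes tested 33.1% passed the adjusted threshold, 17.7% as higher and 15.3% as lower, and the astrocyte and choroid plexus counts below lie near that total. Oligodendrocyte markers were lower in 8 of 8 genes (summed FPKM 2202.2 to 3613.6 on the normal diet, 1515.6 to 2096.5 on HFD), and blood markers in 5 of 5 (239.2 to 479.7 against 199.1 to 247.4). Of 8 markers of GABAergic interneurons 2 were higher and 4 lower, and of 6 astrocyte markers 2 were lower. Of 5 choroid plexus markers 2 were lower, and their sum ranged from 22.8 to 948 FPKM among HFD mice. Of 5 microglia markers 0 passed limma's adjusted threshold. Of 3 hippocampus markers tested, 1 was higher and 1 lower. Cholinergic neuron markers were not analysed here. The part of these shifts in the cholinergic results was not tested.

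Normal mice 2 and 3, whose cerebellum and thalamus sums were the highest, were the lowest normal mice for Chrm1, Chrm3, Chrna7 and Chrm4, and the highest for Chrnb2, Ache and Plcb4. For Chrna4 they were the highest and the lowest normal mouse. These placements were noticed in the data and were given no test.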
